A study of Mus musculus with 4 samples.

Results

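Integrins are the receptors by which cells hold on to matrix and to each other. The genes described here are those whose symbol starts with Itga (alpha subunits) or Itgb (beta subunits) in the platform annotation, which gave 29 of the 18193 genes named on the array, measured by 65 of 45037 probe sets. They comprise 25 subunits and 4 genes that carry an integrin name without being subunits. Where several probe sets measured a gene, the one brightest on average (mean log2 signal) stood for it. Of the 29 genes, 26 were called Present (detected above background by the authors' call) on at least 1 array, 23 of them on all 4, and Itga2, Itgb2l and Itgb4 on none. The RefSeq table lists 31 such genes, and the other 2, Itga11 and Itgad, were not analysed here.

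Expression was measured in total RNA of parietal peritoneum, which lines the wall of the abdomen, from C57BL/6J mice. The 4 groups were transgenic mice given chlorhexidine gluconate, transgenic mice given vehicle, wild-type mice given chlorhexidine and wild-type mice given vehicle, with 1 array each. The transgene is labelled SAP-BNP-Tg, brain natriuretic peptide under the serum amyloid P promoter, a promoter active in liver. Chlorhexidine, an antiseptic that irritates the peritoneum, was given intraperitoneally at 0.1%, dissolved in 15% ethanol and 85% PBS, at 0.01 mL per gram of body weight, 3 times per week for 21 days. Vehicle groups are labelled ethanol/PBS, and their ethanol content, volume and schedule are not in the labels. These give neither the age of the mice nor how many mice made up an array.

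The arrays called 50.5% to 55.1% of probe sets Present. Signals were brought to a common trimmed mean, by factors of 0.877 to 1.17. The wild-type vehicle array stood apart, with a mean 18S rRNA signal of 1052, against 81.5 to 108 on the other arrays. Every wild-type value of chlorhexidine over vehicle rests on it, and the value over the transgenic vehicle array is added below for the integrin and pathway genes named with a wild-type call whose call ended, whose direction turned or whose fold moved by more than 1.5 times. The transgene product, Nppb, was called Absent on all 4 arrays (signals of 4.04 to 20.1), so it does not check the genotype labels. Markers of mesothelium, the cell layer that defines the tissue, were Present for 8 of 8 genes, and those of skeletal muscle for 9 of 9.

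Each integrin is a dimer of 1 alpha and 1 beta subunit, and the combination sets the ligand. Beta2 and beta7 integrins belong to leukocytes and bind counter-receptors such as ICAM and MAdCAM proteins. The RGD-binding class reads an arginine-glycine-aspartate motif in fibronectin, vitronectin and latent TGF-beta, whereas other dimers bind collagens or the laminins of basement membrane. Alpha-v integrins are known to release active TGF-beta from its latent form, and alpha5-beta1 is the main fibronectin receptor of fibroblasts.

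A gene is called higher or lower here when its difference on the log2 scale was at least 1 (2-fold), if the brighter of both arrays was Present with a signal no lower than the 25th percentile (34.5 to 35.4) of its Present probe sets. With 1 array per group these calls have no replicate check and carry no p-value. With chlorhexidine, the fibronectin receptor chain Itga5, the leukocyte chain Itgam and the alpha-v partner Itgb3 were higher in both genotypes, and Itgax was lower in transgenic mice. Another 3 subunits, Itga2b, Itgb1 and Itgb8, were called higher in wild type. In transgenic mice 4 of 26 integrin genes were called, where 5.21% of all 12754 genes tested were: 3 were higher (3.81% of all genes) and 1 was lower (1.4%). In wild type 6 of 26 were called, against 13.2% of all genes, and all 6 were higher (8.22% of all genes; 4.93% were lower). The 3 genes higher in both genotypes are 11.5% of the 26, where the share of all genes was 3.03%. The medians over the 26 genes were 0.24 in transgenic mice and 0.32 in wild type on the log2 scale, and those over all genes tested were 0.0012 and -0.00088.

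**Figure D1:**
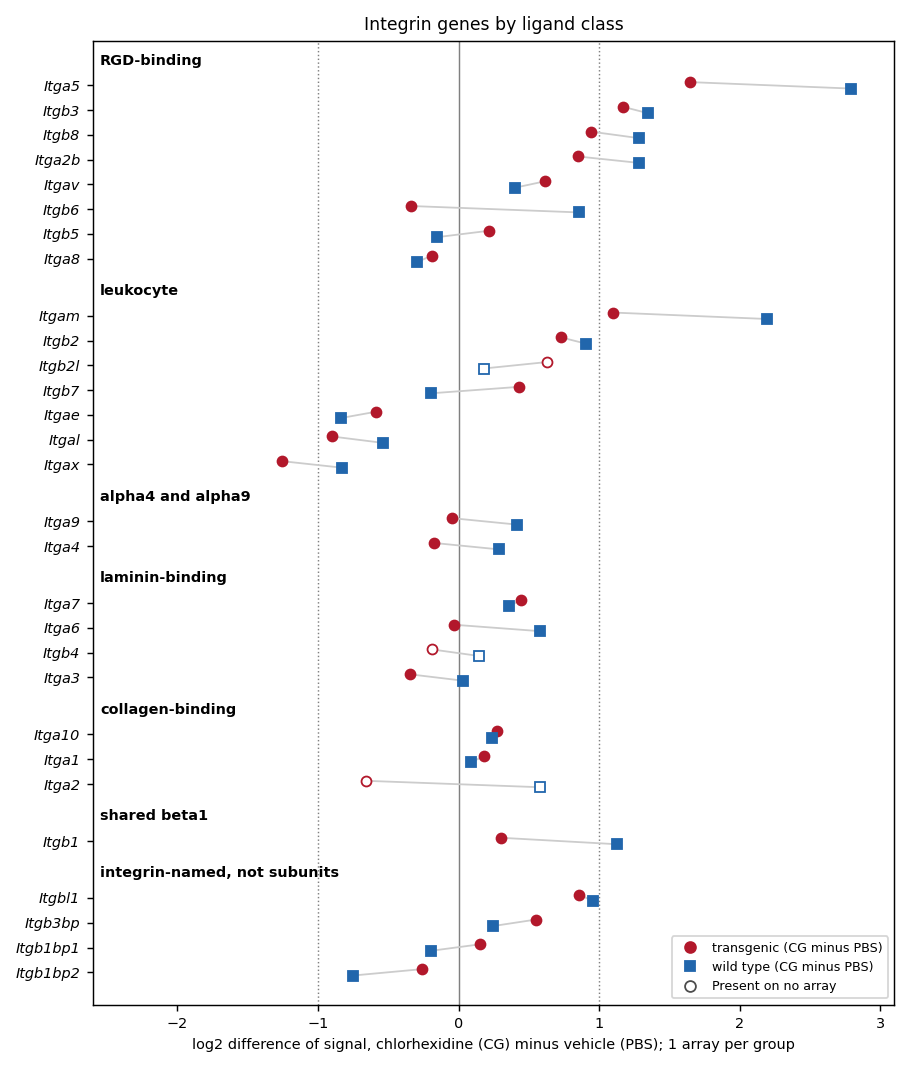
Log2 differences of signal, chlorhexidine (CG) minus vehicle (PBS), of the 29 integrin genes by ligand class, with transgenic mice as circles and wild type as squares; dotted lines mark a 2-fold difference and open symbols genes Present on no array. Itga5 and Itgam lie farthest to the right in wild type (2.79 and 2.19), and Itgax farthest to the left in transgenic mice (-1.25).

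The promoters of Itgam, Itgax and Itga5 are shown because Itgam and Itga5 were higher in both genotypes, whereas Itgax, the neighbour of Itgam with a window that starts 66910 bases away, went the other way. The letters are the 250 bases before the annotated gene start, 5′ to 3′ on the gene's strand, from RefSeq (GRCm38.p6). Capitals mark matches, on either strand, to GAGGAA, the core bound by the myeloid transcription factor PU.1, and to TGANTCA, the site of AP-1 factors, which do not overlap here. The Itgam window is chr7:128062390-128062639 (plus strand), that of Itgax chr7:128129300-128129549 (plus strand) and that of Itga5 chr15:103366792-103367041 (minus strand).
Itgam: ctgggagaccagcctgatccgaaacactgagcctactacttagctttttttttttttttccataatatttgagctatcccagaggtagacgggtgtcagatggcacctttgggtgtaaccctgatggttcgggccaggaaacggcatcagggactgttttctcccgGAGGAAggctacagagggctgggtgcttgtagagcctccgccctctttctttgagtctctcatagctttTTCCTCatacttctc
Itgax: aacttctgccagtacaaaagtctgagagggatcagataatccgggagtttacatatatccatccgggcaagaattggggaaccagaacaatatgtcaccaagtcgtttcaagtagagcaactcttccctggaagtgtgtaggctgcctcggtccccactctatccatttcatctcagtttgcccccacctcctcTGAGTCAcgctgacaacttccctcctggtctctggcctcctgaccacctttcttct
Itga5: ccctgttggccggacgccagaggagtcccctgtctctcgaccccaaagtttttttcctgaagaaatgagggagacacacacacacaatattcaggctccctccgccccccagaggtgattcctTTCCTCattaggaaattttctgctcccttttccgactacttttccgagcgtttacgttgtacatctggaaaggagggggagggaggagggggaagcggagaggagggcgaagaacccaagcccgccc
GAGGAA was found in 23.3% of 32851 RefSeq windows of this length and TGANTCA in 6.75%. Among 23 windows of 21 integrin genes with an entry, 8 held GAGGAA (Itgb6, Itgav, Itgam, Itgb1, Itga3, Itga2b, Itga5 and Itgb2l) and 1, that of Itgax, held TGANTCA.

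The RGD-binding class had the highest median of the 4 ligand classes. Its 8 genes were all Present on an array, with medians of 0.73 in transgenic mice and 1.07 in wild type. With both chlorhexidine arrays set against the vehicle array of transgenic mice, the medians were 0.73 for each. Of the 8 genes, 2 were called higher in transgenic mice (3.81% of all genes) and 4 in wild type (8.22% of all genes), and none was called lower. Over transgenic vehicle, 2 were called higher for the wild-type chlorhexidine array, where 7.23% of all genes were.

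Itga5 encodes the alpha chain that binds fibronectin together with beta1. It had signals of 80.2 with chlorhexidine and 25.6 with vehicle in transgenic mice, and of 124 with chlorhexidine and 17.9 with vehicle in wild type. It was 3.13-fold higher in transgenic mice and at least 6.92-fold higher in wild type, a lower bound because the wild-type vehicle array was not called Present. Both chlorhexidine arrays lay above both vehicle arrays, and the wild-type chlorhexidine array was 4.84-fold above the transgenic vehicle array. The 4 Itga5 probe sets were all above 0 in both genotypes, yet they disagreed in size. Their log2 differences ran from 0.22 to 1.65 in transgenic mice and from 0.86 to 2.79 in wild type, and the transgenic call was lost when the chosen probe set, which can match other transcripts, was left out (0.22). Fibroblast markers had a summed signal of 26579 with chlorhexidine and 16178 with vehicle in transgenic mice, and of 31044 and 15670 in wild type, with 3 and 5 of 8 called higher. The sums include the collagen genes Col1a1 (4393 and 1087 in transgenic mice, 5769 and 1060 in wild type) and Col1a2 (6884 and 3596, and 8057 and 3717). The part of fibroblasts in the Itga5 values was not tested.

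Itgb3 encodes a beta chain that pairs with alpha-v and, on platelets, with the product of Itga2b. Itgb3 had signals of 63.9 with chlorhexidine and 28.3 with vehicle in transgenic mice (2.25-fold higher), and of 46.3 and 18.1 in wild type (2.55-fold higher). The wild-type difference was 0.71 on the log2 scale against the transgenic vehicle array, below the size rule. Itga2b, the platelet alpha-IIb chain, had signals of 63.4 with chlorhexidine and 35.3 with vehicle in transgenic mice (1.80-fold), and of 85.9 and 35.4 in wild type (2.43-fold higher). For both genes the chlorhexidine arrays lay above both vehicle arrays, but Itgb3 was brightest in transgenic and Itga2b in wild-type chlorhexidine tissue. Some platelet and megakaryocyte markers were higher alongside, and their part in these results was not tested. Of 6 measured markers, 4 were Present, 2 were called higher in transgenic mice and 1 in wild type, and Gp6 and Treml1 were Absent on all arrays. The markers' summed signal was 1097 with chlorhexidine and 678 with vehicle in transgenic mice, and 789 and 720 in wild type. In bulk tissue, more cells of a type and more RNA per cell cannot be told apart.

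Itgb8 encodes a beta chain of alpha-v known for binding latent TGF-beta. Its signals were 53.1 with chlorhexidine and 27.6 with vehicle in transgenic mice (1.92-fold), and 54.9 and 22.6 in wild type (2.43-fold higher). The genotypes thus had like values on each treatment, on either side of the 2-fold line, and the wild-type difference was 0.99 on the log2 scale against the transgenic vehicle array. Itgav, the alpha chain itself, had signals of 866 with chlorhexidine and 565 with vehicle in transgenic mice (1.53-fold), and of 951 and 719 in wild type (1.32-fold). Its chlorhexidine arrays exceeded both vehicle arrays without reaching the size rule.

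Itgb5, another alpha-v partner and a vitronectin receptor chain, differed little, with signals of 720.0 and 621 in transgenic mice (chlorhexidine and vehicle) and 684 and 762 in wild type. Itga8, a chain of smooth muscle and mesenchymal cells, had signals of 63.1 and 72.0 in transgenic mice and 70.9 and 86.9 in wild type. Neither gene came near the size rule. Itgb6, the epithelial alpha-v partner that activates TGF-beta, had signals of 47.5 with chlorhexidine and 60.2 with vehicle in transgenic mice, and of 44.2 and 24.3 in wild type. Its wild-type log2 difference was 0.86, and -0.45 over transgenic vehicle. The chlorhexidine arrays had nearly equal signals, and the vehicle arrays differed 2.47-fold, higher in transgenic mice. The second Itgb6 probe set showed the same order, with log2 differences of -0.30 in transgenic mice and 0.43 in wild type. Keratinocyte markers had summed signals of 153 with chlorhexidine and 136 with vehicle in transgenic mice, and 106 and 134 in wild type; those of mesothelium were 594 and 536, and 402 and 689. Their part in the Itgb6 values was not tested.

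**Figure D2:**
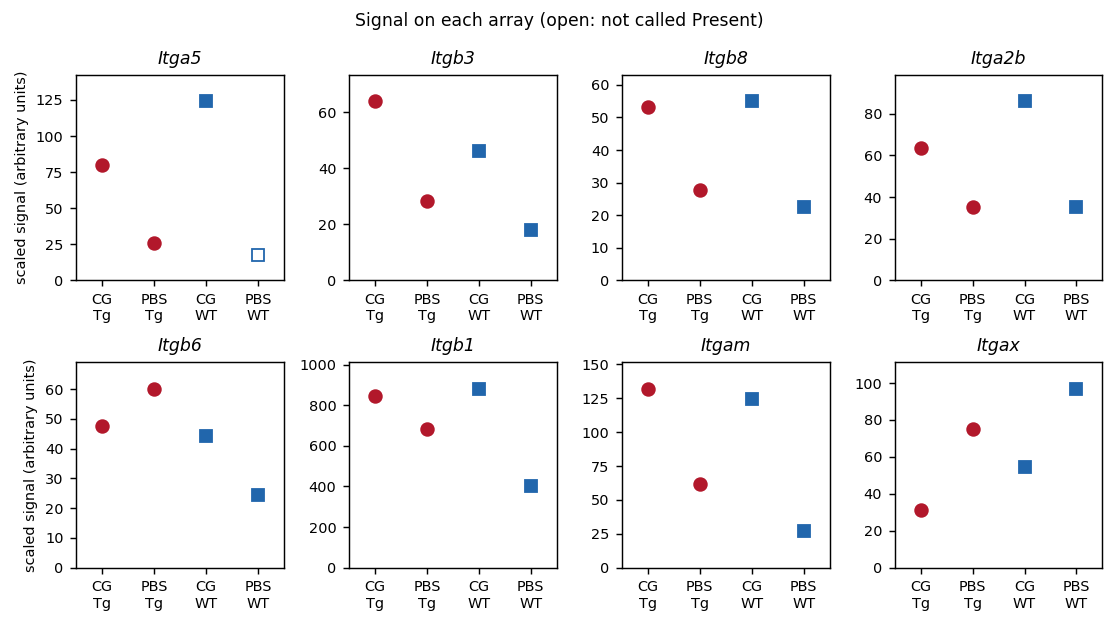
Scaled signal (arbitrary units) on each of the 4 arrays for the 8 integrin genes called with chlorhexidine or between genotypes, with transgenic mice as circles and wild type as squares; open symbols were not called Present. Itga5, Itgb3, Itgb8, Itga2b and Itgam are higher on both chlorhexidine (CG) arrays than on either vehicle (PBS) array, Itgax is lower on both, and Itgb6 and Itgb1 stand out by a low wild-type vehicle value (24.3 and 404).

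Leukocyte integrins differed in direction. Of 7 genes, 6 were Present on an array, with medians of -0.08 in transgenic mice and -0.37 in wild type, or 0.11 in wild type when its chlorhexidine array was set against transgenic vehicle. By the chosen probe sets, Itgam and its partner Itgb2 had higher signals with chlorhexidine, and Itgal, Itgax and Itgae lower ones, in both genotypes.

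Itgam encodes CD11b, which with beta2 forms the complement receptor of neutrophils, monocytes and macrophages. Its signals were 132 with chlorhexidine and 61.8 with vehicle in transgenic mice (2.14-fold higher), and 124 and 27.3 in wild type (4.56-fold higher). The 2 chlorhexidine arrays were alike, and the larger fold in wild type came with a lower vehicle value, since the fold over the transgenic vehicle array was 2.02. Most neutrophil markers were higher too, with a summed signal of 2229 with chlorhexidine and 247 with vehicle in transgenic mice, and of 464 and 97.3 in wild type. Of 5 Present genes, 4 and 3 were called higher, and Cxcr2 was Absent throughout. S100a8 and S100a9 gave most of the transgenic chlorhexidine sum (1066 and 930). Mmp9 was not called, with log2 differences of 0.25 in transgenic mice and -0.49 in wild type. Monocyte and macrophage markers summed to 7914 with chlorhexidine and 5325 with vehicle in transgenic mice, and to 8482 and 5073 in wild type, with 3 and 4 of 8 genes called higher. The part of these cells in the Itgam values was not tested.

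Itgax encodes CD11c, the alpha chain by which dendritic cells are usually recognised. Its signals were 31.4 with chlorhexidine and 74.9 with vehicle in transgenic mice (2.38-fold lower), and 54.4 and 96.9 in wild type (1.78-fold). Itgal, the CD11a chain of LFA-1 on lymphocytes, had signals of 45.7 with chlorhexidine and 85.4 with vehicle in transgenic mice, and of 75.4 and 109.6 in wild type. Both genes were lowest on the transgenic chlorhexidine array and highest on the wild-type vehicle array, and their chlorhexidine arrays lay below both vehicle arrays. Itgae, the CD103 chain that binds E-cadherin, had signals of 25.9 with chlorhexidine and 38.8 with vehicle in transgenic mice, and of 19.2 and 34.3 in wild type. A second Itgae probe set, Present on the transgenic vehicle array alone, gave log2 differences of -2.16 in transgenic mice and 0.19 in wild type.

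Markers of other leukocytes differed in level beside these 3 genes. B and plasma cell markers had a summed signal of 243 with chlorhexidine and 1805 with vehicle in transgenic mice, and of 162 and 4194 in wild type, and 5 of 5 Present genes were called lower in each genotype. Dendritic cell markers summed to 153 with chlorhexidine and 182 with vehicle in transgenic mice, and to 139 and 160 in wild type, with none of 4 Present genes called and Xcr1 and Ccr7 Absent on all arrays. T and NK cell markers summed to 186 in both transgenic groups, and to 315 with chlorhexidine and 291 with vehicle in wild type, but they differed in direction. The granzyme gene Gzmb was called higher in both genotypes, by at least 6.67-fold and 11.4-fold. Cd3g was called lower in transgenic mice (log2 differences of -1.07 and -0.43) and Cd2 in wild type (-1.27 and -1.29), and the other 4 Present genes of 7 were not called. Markers shared by all leukocytes summed to 3346 with chlorhexidine and 2211 with vehicle in transgenic mice, and to 4096 and 3164 in wild type, with none of 5 called. Their part in the lower Itgax, Itgal and Itgae signals was not tested.

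The beta chains of leukocytes differed less. Itgb2, the partner of CD11a, CD11b and CD11c, had signals of 483 with chlorhexidine and 292 with vehicle in transgenic mice (1.65-fold), and of 522 and 278 in wild type (1.88-fold). Itgb7, which pairs with alpha4 and CD103 in gut-homing lymphocytes, had signals of 45.6 and 33.9 in transgenic mice (chlorhexidine and vehicle) and 44.6 and 51.0 in wild type. Itgb2 was higher on both chlorhexidine arrays than on either vehicle array, and Itgb7 showed no common direction. Itga4, the alpha chain that binds VCAM-1, had signals of 92.3 with chlorhexidine and 104 with vehicle in transgenic mice, and of 138 and 113 in wild type. Itga9, which binds tenascin and osteopontin, had signals of 30.0 and 31.0 in transgenic mice, and of 27.4 and 20.5 in wild type, the last of them Marginal.

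Ratios between subunits that can share a partner do not depend on the factor by which each array was multiplied, since both signals come from 1 array. Quantile normalization or a pseudocount can still change them. The pairs were chosen after their values were seen. The ratio of Itgam to Itgax was 5.10-fold higher with chlorhexidine in transgenic mice and 8.13-fold higher in wild type. Set against transgenic vehicle, wild-type chlorhexidine had a 2.77-fold higher ratio. The ratio of Itgal to Itgax, within genotypes, was 1.27-fold higher in transgenic mice and 1.23-fold higher in wild type. Among alpha chains that join beta1, the ratio of Itga5 to Itga6 was 3.21-fold higher in transgenic mice and 4.64-fold higher in wild type, and that of Itga5 to Itgav was 2.04-fold and 5.24-fold higher. The wild-type ratios of Itga5 rest on its Absent signal with vehicle. Among partners of alpha-v, the ratio of Itgb3 to Itgb5 was 1.94-fold and 2.84-fold higher, and that of Itgb8 to Itgb5 was 1.66-fold and 2.71-fold higher. Over transgenic vehicle, the wild-type ratios were 1.48-fold higher for Itgb3 to Itgb5, 1.80-fold for Itgb8 to Itgb5, 2.87-fold for Itga5 to Itgav and 4.14-fold for Itga5 to Itga6. That of Itgb6 to Itgb5 had a log2 change of 1.01 in wild type and of -0.59 over transgenic vehicle. The ratios of the other pairs named so far were thus higher with chlorhexidine over either vehicle array, by less over the transgenic one. That of Itgb3 to Itgb8 had log2 changes of 0.23 in transgenic mice and 0.07 in wild type, and of -0.28 for wild type over transgenic vehicle. Unequal change is all such ratios show, and they do not say which subunit moved.

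**Figure D3:**
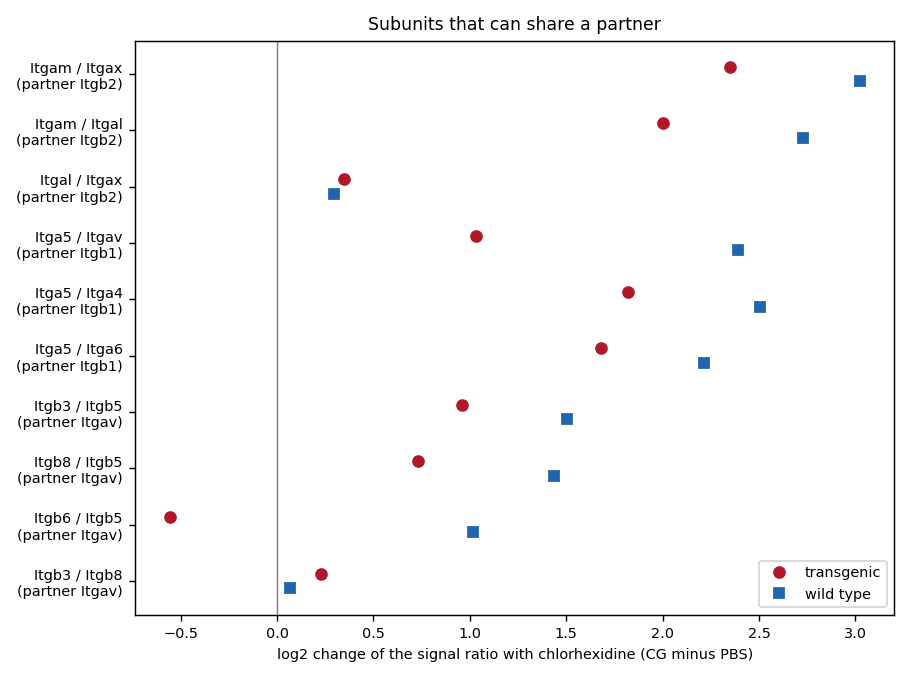
Log2 change with chlorhexidine (CG minus PBS) of the signal ratio of 2 subunits that can pair with the same partner, with transgenic mice as circles and wild type as squares. The ratio of Itgam to Itgax changed most (2.35 and 3.02), and the ratio of Itgb6 to Itgb5 differed in sign (-0.56 and 1.01).

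Laminin-binding and collagen-binding integrins had no member past the size rule, though at these signals it could have called Itga1 alone among the collagen-binding genes. Of 4 laminin-binding genes 3 were Present, with medians of -0.03 in transgenic mice and 0.36 in wild type. Itga6, an alpha chain of epithelium and endothelium, had signals of 250.5 with chlorhexidine and 257 with vehicle in transgenic mice, and of 300.0 and 201 in wild type. A second Itga6 probe set gave log2 differences of 0.24 in transgenic mice and 1.09 in wild type, where the chosen one gave -0.03 and 0.58. Endothelial markers had summed signals of 962 with chlorhexidine and 1008 with vehicle in transgenic mice, and of 1222 and 819 in wild type, and their part in the Itga6 values was not tested.

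Itga7, the laminin receptor chain of skeletal muscle, had signals of 224 with chlorhexidine and 165 with vehicle in transgenic mice (1.36-fold), and of 227 and 177 in wild type (1.28-fold). Both chlorhexidine arrays lay above both vehicle arrays. Skeletal muscle markers summed to 74340 with chlorhexidine and 70935 with vehicle in transgenic mice, and to 73512 and 87345 in wild type, with none of 9 called. Markers of satellite cells and regenerating fibres summed to 1880 with chlorhexidine and 684 with vehicle in transgenic mice, and to 3314 and 795 in wild type, and 4 of 7 were called higher in each genotype. Their part in the Itga7 values was not tested. Itga3, an alpha chain of epithelial basement membrane receptors, had signals of 34.0 with chlorhexidine and 43.3 with vehicle in transgenic mice, and of 44.2 and 43.2 in wild type.

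The collagen-binding class was measured by Itga1, Itga2 and Itga10. Itga1, which binds collagen IV, had signals of 41.3 with chlorhexidine and 36.4 with vehicle in transgenic mice (1.14-fold), and of 56.5 and 53.3 in wild type (1.06-fold). Itga10, a chain known from cartilage, was Present on all arrays but below the 25th percentile of Present probe sets, so the size rule could not call it. Its signals were 18.89 with chlorhexidine and 15.61 with vehicle in transgenic mice, and 21.26 and 18.03 in wild type. Itga2, another collagen receptor chain, was Absent or Marginal throughout. Itga1 was thus lower in both transgenic groups than in either wild-type group, by less than the size rule. Of 7 Present collagen ligand genes, 2 were called higher in transgenic mice (3.81% of all genes) and 5 in wild type (8.22% of all genes). Since Itga1 alone could be called, the class and its ligands cannot be compared by these counts.

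Itgb1, the beta chain shared by collagen, laminin and fibronectin receptors, depended on 1 array. Its signals were 846 with chlorhexidine and 685 with vehicle in transgenic mice (1.24-fold), and 882 and 404 in wild type (2.18-fold higher). The wild-type vehicle value stood below the other 3, and with the transgenic vehicle array in its place the fold was 1.29. The other bright Itgb1 probe sets gave wild-type log2 differences of 0.53 and 1.36, and the mean over all 6 Itgb1 probe sets, dim ones included, was 0.36, short of the size rule.

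**Figure D4:**
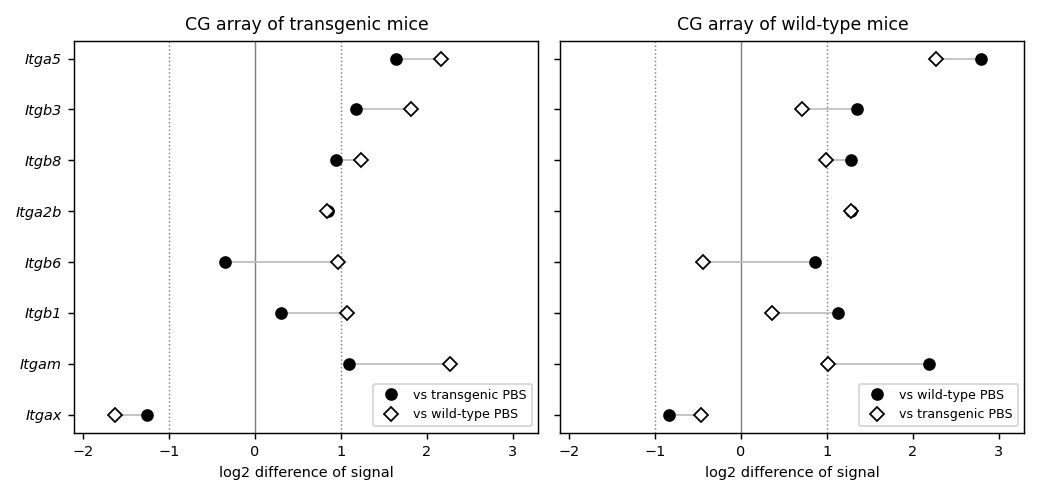
Log2 differences of signal of the 8 called integrin genes for the transgenic (left) and the wild-type (right) chlorhexidine (CG) array, against the vehicle (PBS) array of the same genotype (filled circles) and of the other genotype (open diamonds); dotted lines mark 2-fold. On the wild-type side Itga5, Itga2b and Itgam stay at or beyond 1, and Itgb1 drops to 0.36.

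Exchanging the vehicle arrays between genotypes gave 4 calls for the wild-type chlorhexidine array, where 10.8% of all genes were called. Itga5, Itga2b and Itgam were higher (7.23% of all genes), and Itgae, with signals of 19.2 and 38.8, was 2.02-fold lower (3.57%). The second Itgae probe set had signals of 19.6 and 19.8 on these arrays. For the transgenic chlorhexidine array 8 genes were called, against 7.62% of all genes, with 6 higher (5.17%) and 2 lower (2.45%). The higher ones were Itga5, Itgam, Itgb3, Itgb8, Itgb1 and Itgbl1, and the lower ones Itgax and Itgal. Itga5 and Itgam were therefore higher against either vehicle array.

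The 4 genes with an integrin name that are not subunits had no call within a genotype or a treatment. Itgbl1, a secreted protein built of repeats like those of integrin beta chains, had signals of 475 with chlorhexidine and 262 with vehicle in transgenic mice (1.81-fold), and of 364 and 187 in wild type (1.94-fold). These values were close to 2-fold and alike between genotypes. Itgb1bp2, or melusin, a muscle protein that binds the beta1 tail, had signals of 1196 with chlorhexidine and 1429 with vehicle in transgenic mice, and of 1061 and 1788 in wild type (1.69-fold lower signal with chlorhexidine). Itgb1bp1, a regulator of beta1 activation, and Itgb3bp, a centromere protein, had log2 differences of 0.15 and 0.55 in transgenic mice and of -0.19 and 0.25 in wild type.

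Transgenic and wild-type peritoneum were also compared within each treatment. Under chlorhexidine none of the 26 genes was called, where 1.75% of all genes were (0.784% higher and 0.964% lower), and 15 of the 26 had the lower signal in transgenic mice. The median log2 differences there were -0.05 over the 26 genes and -0.03 over all genes tested. The widest gaps there were Itgax (31.4 in transgenic and 54.4 in wild-type mice), Itgal (45.7 and 75.4) and Itga5 (80.2 and 124), all lower in transgenic mice. Under vehicle 2 genes were called, where 1.46% of all genes were, both higher in transgenic mice (0.957% of all genes were higher and 0.502% lower). These were Itgam (61.8 in transgenic and 27.3 in wild-type mice, 2.26-fold) and Itgb6 (60.2 and 24.3, 2.47-fold). Both calls rest on the wild-type vehicle array, which stood apart.

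For 16 of the 26 genes chlorhexidine and vehicle lay farther apart in wild type, and for 18 the difference had the same sign in both genotypes. The like shares over all genes were not computed, and among all genes too more were called in wild type (13.2%) than in transgenic mice (5.21%). Taken as transgenic minus wild type, the difference of the chlorhexidine differences was -1.14 for Itga5, -1.09 for Itgam, -1.20 for Itgb6 and -0.82 for Itgb1 on the log2 scale, and -0.18 for Itgb3. These values rest on the wild-type vehicle array, on which Itga5 was Absent. With 1 vehicle array for both genotypes that array cancels, which leaves the difference between genotypes under chlorhexidine. This was -0.63 for Itga5, 0.08 for Itgam, 0.10 for Itgb6, -0.06 for Itgb1 and 0.47 for Itgb3. Under vehicle, transgenic minus wild type was 0.52, 1.18, 1.31, 0.76 and 0.64 in the same order. The median of the difference of differences was -0.18 over the 26 genes and 0.02 over all genes tested. No test of it was made, since each group has 1 array.

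Ligands and partners of integrins were counted from lists of other pathway genes, against medians near 0 for all genes tested. Of 7 Present RGD ligands, 1 was called higher in transgenic mice and 4 in wild type: the fibronectin gene Fn1 (2.82-fold and 4.18-fold), and in wild type Thbs1, Tnc and Npnt (log2 differences of 3.43, 3.36 and 1.68). The list's medians were 0.74 in transgenic mice and 1.68 in wild type, or 0.84 for wild type over transgenic vehicle. Npnt rests on a low wild-type vehicle signal, at 397 with chlorhexidine and 397 with vehicle in transgenic mice, and 247 and 77.0 in wild type. Over transgenic vehicle its wild-type log2 difference was -0.68, the opposite direction, and that of Thbs1 was 1.78. Among 5 genes of latent TGF-beta, 1 and 3 were higher, namely Nrros, which holds latent TGF-beta on macrophages, in both genotypes, and Tgfb1 and Tgfb2 in wild type (log2 differences of 1.54 and 1.17). The list's medians were 0.50 and 1.17, with 0.95 for wild type over transgenic vehicle, where the call of Tgfb2 ended (0.88). Of 6 Present laminin chains 0 and 3 were higher, with Lama4, Lamc1 and Lamb1 called in wild type. Over transgenic vehicle Lamb1 kept its call (1.05), Lama4 fell just short of the size rule (0.996) and Lamc1 was at 0.82. Col1a1, Col5a1, Col1a2 and Col6a1 led the collagen ligands, whose medians were 0.85 and 1.12, with 1.16 for wild type over transgenic vehicle. Col1a1 and Col1a2 are also in the fibroblast list. Of 9 Present ligands of leukocyte integrins, Icam1 alone was called, at 2.02-fold in transgenic mice, with 1.83-fold in wild type.

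Of 19 Present scaffold genes of adhesion sites inside the cell, 2 (10.5%) were called in transgenic mice, both higher, and 6 (31.6%) in wild type, 5 higher and 1 lower. Fhl2 and Tes were called in both genotypes, Actn1 and Tgfb1i1 in wild type, and the list's medians were 0.20 and 0.65. Over transgenic vehicle the wild-type median was 0.58, and 4 genes were called (21.1%), 3 higher and 1 lower, while Tgfb1i1 was not (0.85). The lower gene there was not the one called lower over wild-type vehicle. Of 14 genes of talin, kindlin and Rap1 activation none was called in transgenic mice and 2 in wild type, Skap2 and Fyb, both adaptors of leukocytes, of which Fyb was not called over transgenic vehicle (0.96). Of 7 adhesion kinases the myeloid kinase Fgr was called in transgenic mice, and of 9 membrane partners the urokinase receptor Plaur in wild type (log2 differences of 0.65 in transgenic mice and 2.54 in wild type, or 1.11 over transgenic vehicle). In all, 8 of 83 Present genes on the lists were called in transgenic mice (9.64%), where 5.21% of all genes were, and 24 in wild type (28.9%), where 13.2% of all genes were. Over transgenic vehicle 18 were called (21.7%), where 10.8% of all genes were.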

How the data were processed

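Total RNA was labelled with biotin by in vitro transcription and hybridised to 4 Affymetrix mouse arrays, per the labels' protocols. Per the file headers, the authors deposited a linear signal (intensity), a detection p-value and a Present, Marginal or Absent call for each probe set. How the signal was computed and scaled is not given in the sources used here, and raw scanner files were not used. The deposited series table held the same intensity values (0 differing).

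From these, 64 of 45101 probe sets (controls) were left out, each array was multiplied to the mean of the 4 arrays' 2% trimmed means, a floor of 0.1 was applied, and values were put on the log2 scale (Python 3.11.15, pandas 2.3.3, numpy 2.4.6). Of the rest, 34945 had 1 gene symbol, updated through Entrez identifiers to RefSeq (GRCm38.p6), 932 had several and 9160 none in the table used here. Genes tested (12754) were Present on at least 1 array. Where the dimmer array was not Present, a fold was taken against the higher of that array's lowest Present signal and the gene's own signal there. The scaling and the rule of size were tested on simulated data, in which only bright genes changed, by more than 2-fold, with the same calls on all arrays. All called integrin genes but Itgb1 were dimmer than those, so the simulation does not give the error of their calls. The number of arrays limits the precision, as do disagreeing probe sets and the wild-type vehicle array, and differences below about the SD among 1 gene's probe sets (0.294 in transgenic mice, 0.454 in wild type, log2 scale) are within what probe choice alone gives. Members, classes, lists and alternatives were chosen with earlier results of these data known. Every member was accounted for; of each pathway list up to 4 called genes with the largest mean difference were named. Alternatives were quantile normalization, median centring, the deposited scaling, a pseudocount, other probe set choices, other filters and thresholds, and an exchange of vehicle arrays, of which the wild-type vehicle array for transgenic mice was added after seeing the data.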

Additional observations from a re-analysis of the deposited data

Results flagged for a closer look

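By the chosen probe sets, some Present integrin genes had chlorhexidine differences of opposite sign in the 2 genotypes. Each group has 1 array, the wild-type differences rest on the vehicle array that stood apart, and this contrast was not tested. Given as transgenic minus wild type on the log2 scale, it was -1.20 for Itgb6, 0.62 for Itgb7, -0.61 for Itga6, -0.46 for Itga4, -0.46 for Itga9, -0.38 for Itga3, 0.37 for Itgb5 and 0.34 for Itgb1bp1. Of these, Itgb6 alone exceeded 1. Its log2 difference between transgenic and wild-type mice was 0.10 under chlorhexidine and 1.31 under vehicle. Some differences were near 0, at -0.03 for Itga6 and -0.05 for Itga9 in transgenic mice and 0.03 for Itga3 in wild type. Other probe sets, transgenic before wild type, gave 0.24 and 1.09 for Itga6, and -0.30 and 0.43 for Itgb6. For Itgb5 they gave 0.35 and 0.37, -0.06 and -0.26, and 0.29 and -0.12. Those of Itga4 that were Present on some arrays gave 0.81 and 2.24, and -1.45 and 1.16.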

How the results depend on the processing

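No paired analysis was possible because each group holds 1 array, so that no replicate numbers are shared; a fit of treatment over both genotypes with genotype as a block, which leaves 1 residual degree of freedom, was not run. Counts of called integrin genes moved by more than 1.5 times as follows. In transgenic mice (4 genes) they were 0 with a pseudocount of 32, 2 with probe sets averaged per gene, 10 and 1 at 1.5-fold and 3-fold thresholds, and 8 against the wild-type vehicle array, a choice added after seeing the data. In wild type (6 genes) they were 3 with the pseudocount, and 11 and 2 at the other thresholds. Between genotypes under chlorhexidine (0 genes) they were 1, Itga5 lower, without probe sets that can match several transcripts, and 3 at 1.5-fold; under vehicle (2 genes) they were 0 with the pseudocount, 4 at 1.5-fold and 0 at 3-fold. Class medians moved by more than the SD between probe sets for leukocyte integrins in transgenic mice (0.43 with no filter, -0.58 with Present calls on both arrays, 0.58 with the mean of probe sets) and in wild type (0.11 against the transgenic vehicle array). They also moved for the RGD class in transgenic mice (0.42 without probe sets that can match several transcripts) and in wild type (0.54 with the pseudocount), and against the wild-type vehicle array for the transgenic collagen (-0.15) and laminin (0.32) classes. Pathway genes called in transgenic mice (8) numbered 4 under quantile normalization, 4 after median centring, 4 with the deposited scaling, 3 with the pseudocount, 16 with no filter, and 27 and 2 at the other thresholds; in wild type (24) they numbered 46 and 9 at those thresholds. Itga5 and Itgam in wild type were called under each of 8 alternatives (other than the thresholds and filters), and Itgax in transgenic mice and Itga2b in wild type under 7, all but the pseudocount. Among the filters, requiring Present calls on both arrays removed the wild-type call of Itga5, whose vehicle signal was Absent. Itgb3 in either genotype, Itga5 in transgenic mice, and Itgb1 and Itgb8 in wild type were called under 5 of the 8. The deposited scaling shifted the median of all genes by -0.20 in transgenic mice and 0.25 in wild type, and there Itgam and Itgb3 lost their transgenic calls (0.89 and 0.97).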
